A study of Mus musculus with 4 samples.

Results

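The GIMAP genes (GTPases of immunity-associated proteins) were followed in Treg cells of the mouse large intestine (LI), with or without the histone methyltransferase Setd2. The members were the 8 rows named Gimap1, Gimap3, Gimap4, Gimap5, Gimap6, Gimap7, Gimap8 and Gimap9, out of 53379 genes in the deposited table. The study asked how Setd2, which trimethylates lysine 36 of histone H3, supports Treg cells. YFP+ CD3+CD4+ cells were sorted from the steady-state LI of littermate C57BL/6 mice, and poly(A) RNA was sequenced in 2 libraries per group, each pooled from 2 to 3 mice. The control group was Foxp3Cre-YFPSetd2f/+, so control cells also carried the Cre and 1 floxed Setd2 allele, and the KO group was Foxp3Cre-YFPSetd2f/f. The Cre is driven from the Foxp3 gene, the lineage factor of Treg cells, and the mice were adult, with 6 to 12 weeks as the general age in the methods. Levels are FPKM, a fragment count scaled by transcript length and library size, so genes can be set side by side per length. Over the top 5000 ranks the 4 libraries held nearly the same values, so they were compared on a common distribution.

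GIMAP proteins are small GTPases made mainly by lymphocytes, and several sit on the membranes of the endoplasmic reticulum, Golgi or lysosome. They are best known for keeping resting T and B cells alive, and mice or rats without functional Gimap5 lose T cells and, in mice, develop colitis. The proteins pair through their GTPase domains, and family members have been tied to autophagy, lysosomal calcium and proteins of the Bcl-2 family.

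The 8 genes lie side by side on chromosome 6 of GRCm38, within chr6:48647234-48770851, a stretch of 123.618 kb. In order along the chromosome they are Gimap8 (ENSMUSG00000064262, chr6:48647234-48660875), Gimap9 (ENSMUSG00000051124, chr6:48676129-48679114), Gimap4 (ENSMUSG00000054435, chr6:48684549-48692060) and Gimap6 (ENSMUSG00000047867, chr6:48701582-48708225). Gimap7 (ENSMUSG00000043931, chr6:48718621-48724636), Gimap1 (ENSMUSG00000090019, chr6:48739054-48743795), Gimap5 (ENSMUSG00000043505, chr6:48746197-48754210) and Gimap3 (ENSMUSG00000039264, chr6:48764464-48770851) follow. Gimap6 and Gimap3 are read from the minus strand and the other 6 from the plus strand. All are protein-coding, with a longest coding sequence of 291 to 328 codons in 7 genes and of 688 codons in Gimap8, whose protein holds several GTPase domains in 1 chain.

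Gimap3 and Gimap5 are near copies in part of their coding sequence. Over the 898 coding bases that could be aligned they were 91.0% identical, and 1 alignment of 720 transcript bases was 97.9% identical. The most similar coding window of 150 bases, the length of 1 sequenced read, covers coding bases 146 to 295 of Gimap3 and 158 to 307 of Gimap5. It is shown because reads from such a window can be assigned to either gene, and capitals mark the 1 base that differs.
Gimap3: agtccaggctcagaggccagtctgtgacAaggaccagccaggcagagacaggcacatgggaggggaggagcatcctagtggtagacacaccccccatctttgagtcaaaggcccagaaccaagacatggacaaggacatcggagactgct
Gimap5: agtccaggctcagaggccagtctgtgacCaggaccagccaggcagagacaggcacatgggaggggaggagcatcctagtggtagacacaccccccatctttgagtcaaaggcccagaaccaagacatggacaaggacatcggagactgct
The longest identical run in transcripts of Gimap3 and Gimap5 was 140 bases, so a full read of 150 bases spans at least 1 difference. Their levels are uncertain to the extent that the counting divided such similar reads between them. No other pair of members shared an identical run longer than 17 bases.

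The 250 bases before the start of transcription were taken from the RefSeq table for GRCm38.p6, in which all 8 genes matched and Gimap8 had a pair of starts. Those of Gimap6, the most abundant member, of Gimap9 and Gimap1, which had the smallest p-values in the comparison of KO with control, and of Gimap5, which had the lowest estimate, are shown. Capitals mark the motif letters searched on both strands, CACCC (KLF and SP factors), TGTGGT (RUNX), GGAAGT (ETS), CTTTGA (TCF) and TGACG (cAMP response element), which do not overlap in these 4 windows.
Gimap6, chr6:48708245-48708494, minus strand: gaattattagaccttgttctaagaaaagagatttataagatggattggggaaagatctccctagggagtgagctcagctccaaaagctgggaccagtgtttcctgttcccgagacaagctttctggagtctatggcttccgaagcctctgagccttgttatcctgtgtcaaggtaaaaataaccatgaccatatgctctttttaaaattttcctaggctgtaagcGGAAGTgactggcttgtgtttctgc
Gimap9, chr6:48675885-48676134, plus strand: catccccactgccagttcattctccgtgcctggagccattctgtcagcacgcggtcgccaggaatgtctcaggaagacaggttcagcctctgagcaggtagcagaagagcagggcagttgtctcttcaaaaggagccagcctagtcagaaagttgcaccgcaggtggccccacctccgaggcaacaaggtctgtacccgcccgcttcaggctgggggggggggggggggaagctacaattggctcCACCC
Gimap1, chr6:48738797-48739046, plus strand: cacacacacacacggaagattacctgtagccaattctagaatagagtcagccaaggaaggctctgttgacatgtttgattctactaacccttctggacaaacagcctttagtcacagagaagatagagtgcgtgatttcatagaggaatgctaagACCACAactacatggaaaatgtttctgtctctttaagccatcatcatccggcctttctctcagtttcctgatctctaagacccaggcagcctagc
Gimap5, chr6:48745947-48746196, plus strand: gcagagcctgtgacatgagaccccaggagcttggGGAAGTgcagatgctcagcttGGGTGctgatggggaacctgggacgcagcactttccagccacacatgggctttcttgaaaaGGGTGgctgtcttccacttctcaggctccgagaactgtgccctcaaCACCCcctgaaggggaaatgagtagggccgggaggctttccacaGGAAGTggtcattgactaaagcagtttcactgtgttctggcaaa
The KLF and SP letters were found before 5 of the 8 genes, Gimap3, Gimap4, Gimap5, Gimap8 and Gimap9, and in 52.0% of 32851 windows of the same length. The RUNX letters were found before Gimap1, Gimap4 and Gimap7 (14.05% of all windows) and the ETS letters before Gimap5 and Gimap6 (19.7%). The TCF letters (13.8% of all windows) and the cAMP response letters (17.8%) were found before none of the 8. Gimap5 held 5 matches and each of the other 3 windows shown held 1. Windows follow RefSeq starts, which differ from the gene spans above for some members. The Gimap9 match and 1 Gimap8 match lie inside those spans. A match describes letters in the window and is no evidence of binding.

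Before the members, the libraries were checked. Setd2 itself was at 38.2 and 27.4 FPKM in control 1 and control 2 and at 26.3 and 36.3 FPKM in KO 1 and KO 2, so the level over the whole gene did not separate the groups. Which part of the gene is deleted is not given in the sources used here, and this level does not check the genotype labels. Of the Treg markers, Ctla4 (1593 to 2310 FPKM), Il2ra, Ikzf2, Cd3e and Cd4 were above 84 FPKM in every library, while Foxp3 was at 2.62 and 5.61 FPKM in control and 4.66 and 3.05 FPKM in KO. Both KO libraries were above both controls for Ctla4 (log2 fold change 0.44) and below them for Ikzf2 (-0.37) and Il2ra (-0.21), with adjusted p-values by limma of 0.132, 0.222 and 0.392. On a list of sex-linked genes Ddx3y and Kdm5d were higher and Xist lower in both KO libraries, and Eif2s3y and Uty overlapped. The adjusted p-values by limma were 0.222 for Ddx3y and 0.267 for Kdm5d, and Xist, which is not protein-coding, was not tested. Of markers of other cells, Jchain (112 to 169 FPKM), Lyz2 (128 to 168 FPKM) and Cd68 (21.4 to 31.0 FPKM) were present in every library with ranges that overlapped between groups, the macrophage marker Adgre1 was at 4.38 and 3.66 FPKM in control and 5.60 and 6.24 FPKM in KO (adjusted p = 0.367 by limma), and the CD8 and NK markers summed to 2.51 to 3.61 FPKM. In bulk RNA, fewer cells of a type and less RNA per cell cannot be told apart.

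The GIMAP genes other than Gimap8 were among the abundant transcripts of these cells. They ranked at 973 or better among protein-coding genes in every library, and Gimap8 ranked between 3549 and 4200. Gimap6, which has been tied to autophagy, was at 1159 and 1015 FPKM in control 1 and 2 and at 1143 and 1171 FPKM in KO 1 and 2. This placed it between ranks 73 and 91 of the protein-coding genes, and it alone made up 41.5% to 46.6% of the summed FPKM of the family. Below it, Gimap3 (mean 325 FPKM over the 4 libraries) and Gimap4 (320.2 FPKM) had ranges that overlapped, with Gimap3 the higher in both control libraries and Gimap4 in both KO libraries. Gimap1 (231 FPKM) and Gimap5 (219.7 FPKM) overlapped as well, with Gimap5 the higher in both control libraries and Gimap1 in both KO libraries. Neither reversal of order was tested. Gimap7 (175 FPKM) was above Gimap9 (139.7 FPKM) in 4 of 4 libraries, although their ranges overlapped. Gimap8 was the lowest member, at a mean of 22.7 FPKM, 6.16 times below Gimap9, and its range did not meet that of any other member.

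**Figure D1:**
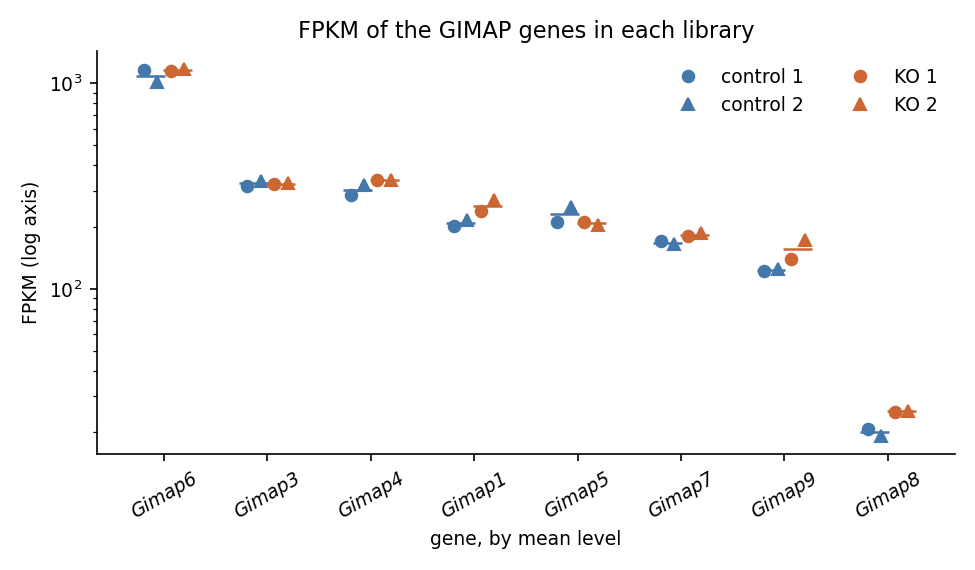
FPKM on a log axis of each GIMAP gene, ordered by mean level, with a point for each of the 2 control (blue) and 2 KO (orange) libraries and a line at each group mean. Gimap6 sits at 1015 to 1171 FPKM, Gimap8 at 19.3 to 25.5 FPKM, and the 4 points of a gene lie much closer to each other than to those extremes.

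No GIMAP gene passed the test between KO and control. limma on log2(FPKM + 1), with Benjamini-Hochberg adjustment over 7639 genes, called 0 of the 8 members, where 0.589% of all genes were called in either direction. At an unadjusted p below 0.05, the threshold of the study's methods, 2 members were higher in KO (Gimap9 and Gimap1) and 0 lower, against 8.61% of all genes higher and 7.57% lower. Both KO libraries lay above both control libraries for 5 of 8 members and below them for none, where 24.2% of all genes lay above and 22.9% below. The 8 genes are neighbours measured in the same 4 libraries and are not independent. The median log2 fold change, KO over control, was 0.14 for the 8 members and -0.0039 for all genes tested.

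The 3 members with the highest estimates were Gimap8, Gimap9 and Gimap1. Gimap8 was at 20.8 and 19.3 FPKM in control 1 and 2 and at 25.1 and 25.5 FPKM in KO 1 and 2. The KO pair lay above the control pair, with a log2 fold change of 0.32 ± 0.14 (SE; 95% interval -0.0033 to 0.65) and an adjusted p of 0.313 by limma. Gimap9, whose function is little known, was at 122 and 125 FPKM in control and at 139 and 172 FPKM in KO. Both KO values were above both controls, and the KO libraries differed from each other by more than KO 1 differed from the controls. Its log2 fold change was 0.32 ± 0.13 (0.01 to 0.63), with an adjusted p of 0.296 by limma.

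Gimap1, a Golgi-resident member without which mature T and B cells are lost, was at 202 and 217 FPKM in control and at 238 and 269 FPKM in KO. The groups did not overlap, and the log2 fold change was 0.27 ± 0.11 (0.0037 to 0.54), with an adjusted p of 0.303 by limma. With each library left out in turn, at most 1 of the 8 members was below an unadjusted p of 0.05. For Gimap9 the log2 fold change ranged from 0.17 without KO 2 to 0.48 without KO 1, and for Gimap1 from 0.19 to 0.36 with the same libraries left out.

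Gimap4 and Gimap7 were also higher in both KO libraries, by less. Gimap4, linked to T cell death and cytokine secretion, was at 287 and 318 FPKM in control and at 339 and 338 FPKM in KO. The controls differed from each other by more than control 2 differed from KO, and the log2 fold change was 0.16 ± 0.11 (-0.09 to 0.42, adjusted p = 0.506 by limma). Gimap7 was at 171 and 165 FPKM in control and at 179.9 and 187 FPKM in KO, a log2 fold change of 0.13 ± 0.11 (-0.12 to 0.37, adjusted p = 0.601 by limma).

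For Gimap6, Gimap5 and Gimap3 the groups overlapped. Gimap6 had a log2 fold change of 0.09 ± 0.11 (-0.18 to 0.36), and control 1 was above KO 1. Gimap5, the lysosomal member whose loss causes lymphopenia, was at 212 and 249.6 FPKM in control and at 212 and 205 FPKM in KO. Only control 2 stood above the rest, and the log2 fold change was -0.14 ± 0.12 (-0.42 to 0.14, adjusted p = 0.615 by limma). Gimap3 was at 315 and 336 FPKM in control and at 324 and 326 FPKM in KO, with both KO values between the controls. Its log2 fold change of -0.0039 ± 0.10 (-0.25 to 0.24) equalled the median of all genes at that precision. The upper ends of the 95% intervals, each set for 1 gene, reached at most 0.65 (Gimap8), or 1.57-fold on this scale. These intervals are not adjusted for the 8 members read together and rest on 2 libraries per group, so a larger increase is not excluded.

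**Figure D2:**
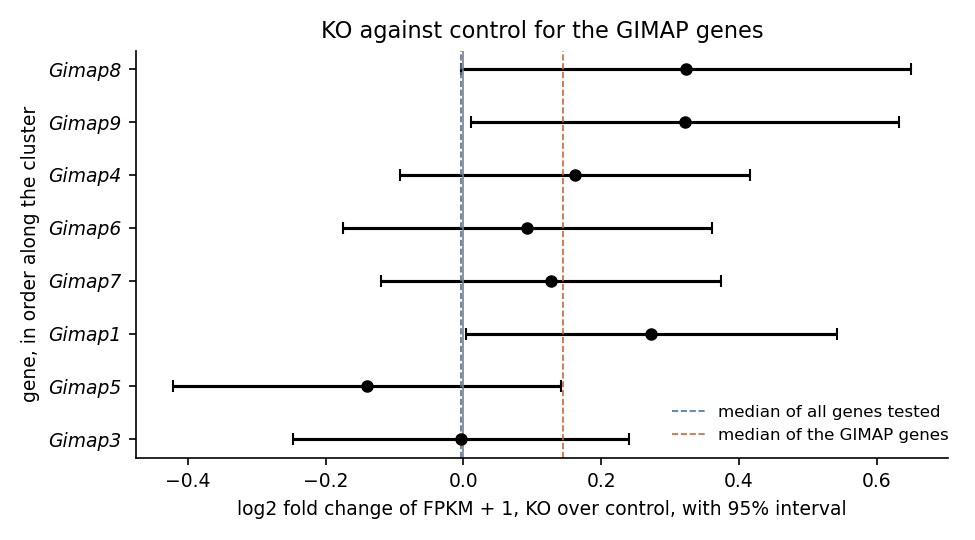
Log2 fold change of FPKM + 1, KO over control, of each GIMAP gene in its order along the cluster, with 95% intervals from limma on 2 libraries per group. The estimates run from -0.14 (Gimap5) to 0.32 (Gimap8 and Gimap9), and the intervals of Gimap9 and Gimap1 alone lie wholly above 0.

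The summed FPKM of the family was 2489 and 2445 in control and 2599 and 2693 in KO, 1.07 times the control mean. Since the members were chosen with results known, no test was made on the sum. The ratios and shares that follow are untested descriptions, and those to Gimap5 were chosen after the values were seen. Gimap9 stood at 0.576 and 0.502 of Gimap5 in control and at 0.655 and 0.841 of it in KO. Gimap1 stood at 0.955 and 0.867 of Gimap5 in control and at 1.12 and 1.31 of it in KO. Gimap5 made up 8.52% and 10.2% of the family sum in control and 8.17% and 7.61% in KO. The share of Gimap6 (46.6% and 41.5% in control, 44.0% and 43.5% in KO) overlapped between groups, as did that of Gimap4 (11.5% and 13.02% in control, 13.02% and 12.5% in KO). Gimap8 stood at 0.170 and 0.154 of Gimap9 in control and at 0.180 and 0.148 of it in KO, which also overlapped. The ratios that involve Gimap5 share its control 2 value and its uncertainty against Gimap3.

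Other transcripts of the cluster overlap the members. Gm28053, annotated as protein-coding, spans chr6:48718607-48752644 on the plus strand and overlaps Gimap7, Gimap1 and Gimap5. Its transcripts share identical runs of 198 bases with Gimap1, 154 with Gimap5 and 81 with Gimap7, so reads can be divided between them. It was at 17.1 and 13.9 FPKM in control and at 19.9 and 28.1 FPKM in KO. The KO values were higher, with KO 2 apart from the rest, and the log2 fold change was 0.59 ± 0.20 with an adjusted p of 0.229 by limma. Gimap1os, on the strand opposite to Gimap1 (chr6:48738346-48741444), was at 94.1 and 76.2 FPKM in control and at 91.9 and 106 FPKM in KO, and the groups overlapped. Whether the counting used strand is not given in the sources used here, so reads of Gimap1 and Gimap1os could not be told apart with certainty.

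Beyond the cluster, most neighbours were low. Of 27 genes outside the cluster and within 200 kb of it, 9 reached 1 FPKM in any library, and the highest value was 29.2 FPKM. Among the 10 neighbours on the fixed list, 2 were abundant enough to test, Tmem176a and Tmem176b, a pair of overlapping genes on opposite strands that encode ion channels of immune cells. Tmem176b was at 17.4 and 13.4 FPKM in control and at 29.2 and 23.6 FPKM in KO. Tmem176a was at 8.03 and 10.7 FPKM in control and at 14.7 and 19.6 FPKM in KO. Both were higher in both KO libraries, as were 24.2% of all genes, with log2 fold changes of 0.74 ± 0.19 and 0.81 ± 0.21. The adjusted p-values were 0.130 and 0.144 by limma. Of the listed neighbours too low to be tested, Lrrc61, Zfp775 and Atp6v0e2 were lower and Rarres2 higher in both KO libraries, and the rest overlapped.

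**Figure D3:**
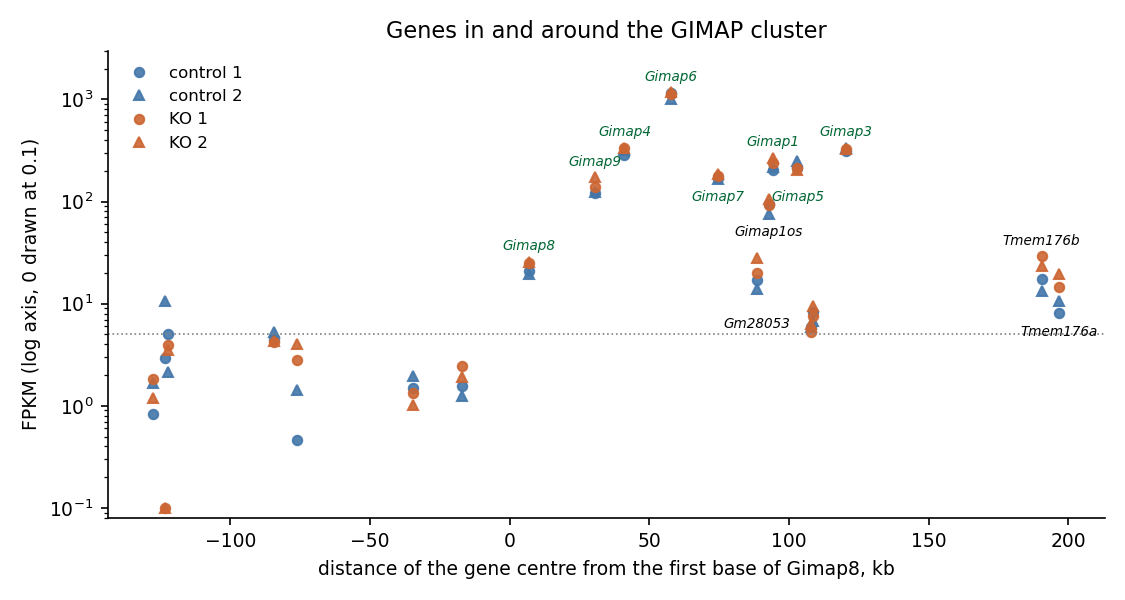
FPKM on a log axis of the 21 genes that reached 1 FPKM in any library in and around the GIMAP cluster, against the distance in kb of the gene's centre from the first base of Gimap8. Blue points are control and orange points KO libraries, GIMAP genes are named in green, and the dotted line is at 5 FPKM, the mean that a gene had to exceed in either group to be tested. The GIMAP genes other than Gimap8, all at 122 FPKM or more, stand above the other genes of the window.

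A list of 14 genes tied to GIMAP function was set beside the family, of which 13 were tested. By limma at an adjusted p below 0.05, 1 fell, 0 rose and 12 were not called (0.589% of all genes were called). At an unadjusted p below 0.05, 3 were lower and 0 higher, against 7.57% of all genes lower and 8.61% higher. The median log2 fold change was -0.16, against -0.0039 for all genes. Lamp1, a membrane protein of the lysosome, the compartment of Gimap5, was at 69.9 and 80.3 FPKM in control and at 34.5 and 32.7 FPKM in KO. It fell by 1.14 ± 0.13 on the log2 scale with an adjusted p of 0.0201 by limma, and every control was above every KO library. With a single KO library left in the fit the adjusted p was 0.136 (without KO 1) and 0.207 (without KO 2).

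Among the Bcl-2 family genes on that list, the survival factor Bcl2 was at 11.2 and 11.2 FPKM in control and at 6.54 and 6.14 FPKM in KO. The KO values were lower than both controls, with a log2 fold change of -0.73 ± 0.18 and an adjusted p of 0.126 by limma. Bcl2l11, which encodes the death-inducing protein Bim, was at 17.7 and 17.3 FPKM in control and at 11.9 and 12.7 FPKM in KO, with a log2 fold change of -0.48 ± 0.15 and an adjusted p of 0.215 by limma. Bcl2l1 (138 and 192 against 148 and 95.7 FPKM), which encodes the survival factor Bcl-xL, overlapped between groups, as did Mcl1, another survival factor, and Bax, which permeabilises mitochondria. Their log2 fold changes were -0.45, 0.12 and -0.06. Bak1 was too low to be tested, at 2.28 to 3.21 FPKM.

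The autophagy modifiers did not move together. Gabarapl1 was at 74.8 and 79.5 FPKM in control and at 90.7 and 89.3 FPKM in KO, without overlap, with a log2 fold change of 0.22 ± 0.11 and an adjusted p of 0.392 by limma. Gabarapl2, a binding partner of Gimap6, had a log2 fold change of 0.03 ± 0.12. For Gabarap, Map1lc3a and Map1lc3b it was -0.10, -0.26 and -0.02, and the groups overlapped for each. The kinase gene Gsk3b (-0.16) and Myh9, a non-muscle myosin heavy chain (-0.17), overlapped as well.

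Since GIMAP genes are typical of resting lymphocytes, 16 further genes of the resting state were read, and all 16 were tested. At an adjusted p below 0.05 by limma 1 fell, 0 rose and 15 were not called (0.589% of all genes were called). At an unadjusted p below 0.05, 4 were lower and 0 higher, against 7.57% of all genes lower and 8.61% higher. Both KO libraries lay below both controls for 7 of the 16 and above them for 2, where 22.9% of all genes lay below and 24.2% above. The median log2 fold change was -0.14. Ccr7, the receptor that guides T cells to lymph nodes, was at 542 and 587 FPKM in control and at 319 and 236 FPKM in KO. It fell by 1.04 ± 0.15 on the log2 scale with an adjusted p of 0.0475 by limma, which was 0.0684 without KO 1 and 0.240 without KO 2. The antiproliferative genes Tob1 (-0.52) and Btg1 (-0.50) were also lower in both KO libraries without being called. On the other side of 0, Btg2 (0.19) and Foxp1 (0.09) were higher in both KO libraries, and Il7r (0.05) and Lef1 (0.01) overlapped, none of them called. The 8 GIMAP genes, with 6 estimates above 0 and 2 below, and these 16 genes, with 4 above and 12 below, are given side by side. Of all genes tested, 3772 had estimates above 0 and 3867 below. The difference between the lists was not tested.

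A list of other immune GTPases was read for comparison. It holds interferon-induced guanylate-binding proteins and immunity-related GTPases, with Gvin1, Mx1 and Mx2 beside them. Of 17 genes 15 were tested, and limma called 0 at an adjusted p below 0.05 (0.589% of all genes). At an unadjusted p below 0.05, 5 were higher in KO and 0 lower, against 8.61% of all genes higher and 7.57% lower. Both KO libraries lay above both controls for 11, where 24.2% of all genes did so. The median log2 fold change was 0.27. Gbp4 had the smallest p of the list, at 77.4 and 81.6 FPKM in control and 127 and 119 FPKM in KO, with a log2 fold change of 0.63 ± 0.11 and an adjusted p of 0.0719 by limma. Igtp, Gbp6 and Gbp2 had log2 fold changes of 0.38, 0.42 and 0.47, each without overlap between groups. Tgtp1 (-0.19), Irgm1 (-0.12), Tgtp2 (-0.10) and Irgm2 (-0.08) had estimates below 0 and overlapped.

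**Figure D4:**
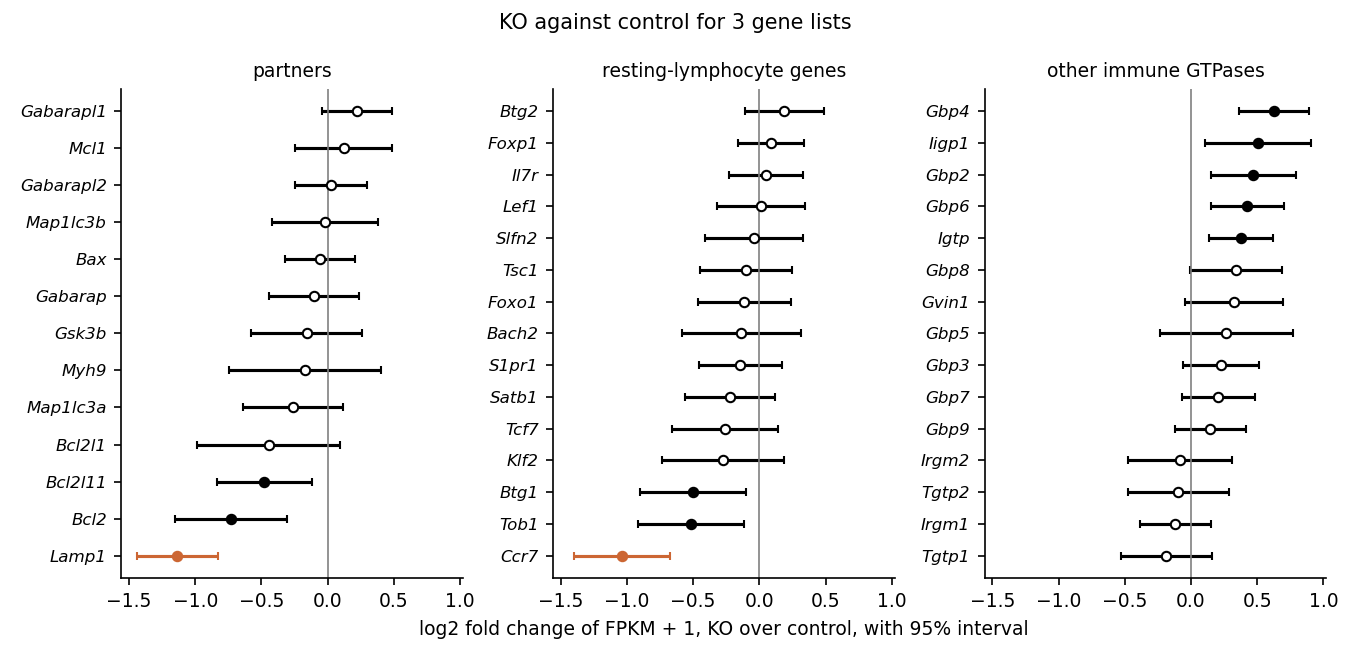
Log2 fold change of FPKM + 1, KO over control, with 95% intervals, of genes tested on 3 lists, ordered by estimate, with 15 of the 16 resting-lymphocyte genes drawn. Orange points passed the test at an adjusted p below 0.05 (Lamp1 and Ccr7), filled black points had an unadjusted p below 0.05, and open points had neither. The filled points lie below 0 among the partners and resting-lymphocyte genes and above 0 among the other immune GTPases.

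Markers of other cells were set beside these values. Of 5 endothelial markers, 2 reached 1 FPKM, and the sum was 37.1 to 38.2 FPKM in control and 44.8 to 51.8 FPKM in KO. Nearly all of it was Pecam1, an adhesion molecule that T cells also make, at 34.7 and 36.3 FPKM in control and 49.3 and 42.7 FPKM in KO (adjusted p = 0.252 by limma), while Cdh5, Kdr and Tie1 were at or below 0.25 FPKM in every library. Of 5 stromal markers only Dcn reached 1 FPKM, and their sum was 2.72 to 4.42 FPKM in control and 5.32 to 5.89 FPKM in KO. Of 5 epithelial markers, Epcam and Krt18 reached 1 FPKM, and their sum was 33.1 to 35.4 FPKM in control and 27.0 to 28.4 FPKM in KO. The pair went opposite ways without overlap, Epcam from 28.7 and 30.8 FPKM to 19.6 and 21.1 FPKM (adjusted p = 0.147 by limma) and Krt18 from 4.23 and 4.52 FPKM to 7.22 and 7.18 FPKM (adjusted p = 0.224), while Krt8, Krt20 and Vil1 were at or below 0.19 FPKM. The sums of the B and plasma cell markers (123 to 167 FPKM in control, 117 to 174 FPKM in KO) and of the myeloid markers (166 to 187 and 161 to 211 FPKM) overlapped. Their part in the GIMAP values was not tested.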

How the data were processed

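RNA-seq of LI Treg cells was used, with 2 control and 2 KO libraries. Tools and builds named in the submitters' processing notes are FastQC, STAR 2.5, RSEM 1.2, GRCm38 and mm10. The authors deposited FPKM for 53379 genes, rounded to 2 decimals. Column sums differ by at most 0.0098% and values at the same rank by at most 0.173% over the top 5000, so total RNA differences are not kept. Such columns look quantile-normalized, a step that the labels do not name. Differences between KO and control, and the spread that limma used, are on these rank-matched values. Read counts and depth are unknown, no count test or counting interval was possible, and precision is the spread between 2 pools. RSEM divides reads that fit several genes by a model.

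Genes that GENCODE vM21 types as protein-coding were tested where the control or KO mean exceeded 5 FPKM, with limma 3.58.1 in R 4.3.3 on log2(FPKM + 1), with trend and no covariate, followed by Benjamini-Hochberg adjustment over 7639 genes. The script was tested on simulated data. Fold changes on this scale understate those of low genes. Whether replicates differ in more than their pool of mice is not given. All members, all tested partners and neighbours, of other lists the called genes and up to 4 with the smallest p per direction (of the splenic list the called genes alone) were named, with the 3 genes most like the family profile. For the resting list, 1 gene is counted but not reported here by name. The members and lists were chosen with earlier results of these data known. Alternatives changed the pseudocount, filter, scaling, trend, pairing or libraries used.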

Additional observations from a re-analysis of the deposited data

How the results depend on the processing

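The counts of GIMAP genes at an adjusted p below 0.05 were 0 in each direction under all 14 alternatives. At an unadjusted p below 0.05, 2 were higher in KO, against 1 with all gene types, 1 after median-centring, 0 without the trend and 0 to 1 with a library left out. Gimap9 and Gimap1 each passed that p in 7 of 14 alternatives and Gimap8 in 3. Over all genes, 24 rose and 21 fell at an adjusted p below 0.05. Without a filter on low values 0 and 0 did (1170 higher at an unadjusted p), with all gene types 5 and 8, without the trend 1 and 2, and with a mean FPKM of at least 1, 11 fell. With a library left out, 1 to 36 rose and 1 to 30 fell, and at an unadjusted p 330 to 650 were higher and 314 to 600 lower. The cause was not tested.

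Neither labels nor methods pair the libraries, and deviations of same-numbered libraries correlated at -0.305. Under the replicate block 15 genes rose and 12 fell, and at an unadjusted p 419 genes were higher, 377 lower and 0 GIMAP genes higher. With the crossed pairing, chosen after seeing the data, the counts were 240, 225, 1008, 983 and 3. That setting is among the alternatives counted above and below.

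Leaving out each library in turn, small log2 fold changes turned sign. They ranged from -0.0028 to 0.19 for Gimap6, -0.051 to 0.043 for Gimap3, -0.13 to 0.011 for Bax, -0.26 to 0.049 for Gabarap, -0.062 to 0.11 for Gabarapl2, -0.38 to 0.066 for Gsk3b, -0.28 to 0.24 for Map1lc3b, -0.081 to 0.32 for Mcl1 and -0.42 to 0.075 for Myh9. The other 6 GIMAP genes kept their sign under all 14 alternatives. The fall of Lamp1 held at an adjusted p below 0.05 in 9 of 14 and that of Ccr7 in 7 of 14.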

Other observations

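Over the 4 libraries, the genes whose log2(FPKM + 1) was most like the mean centred profile of the 8 GIMAP genes were Eri1, an exoribonuclease that trims histone messenger RNA, Tlr1, a receptor for bacterial lipopeptides, and Gzma, the protease granzyme A. Their Pearson r with the profile was 0.999 each over 4 libraries, a description in which 170 of 2797 genes compared had an r above 0.95. The genes were picked for this likeness, which fixed their direction and their order over the libraries. Gzma was at 219 and 290.4 FPKM in control and at 563 and 872 FPKM in KO. It rose by 1.47 on the log2 scale, with an adjusted p of 0.0475 by limma. Without control 1 the adjusted p was 0.0521, without KO 1 0.0594 and without KO 2 0.219. Eri1 was at 24.1 and 26.2 FPKM in control and at 32.1 and 36.7 FPKM in KO, and Tlr1 at 6.10 and 6.57 against 8.55 and 10.4 FPKM, and neither was called.

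Of the GIMAP genes, Gimap3, Gimap5, Gimap7 and Gimap9 are on the study's list of genes typical of splenic Treg cells, which was drawn from other published samples. Of its 494 symbols 274 were tested. At an adjusted p below 0.05 by limma, 1 rose (Tmem71, adjusted p = 0.0353) and 2 fell (Gpr83, 0.0475, and H2-Ob, 0.0485). Those calls held in 8, 5 and 4 of 14 alternatives, and each was lost without KO 1 (adjusted p of 0.229, 0.231 and 0.228) and without KO 2 (0.298, 0.200 and 0.364). Without control 1 the adjusted p was 0.0366, 0.0902 and 0.0948. Over all genes, 0.589% were called at an adjusted p below 0.05. At an unadjusted p below 0.05, 34 (12.4%) were higher in KO and 26 (9.49%) lower, against 8.61% and 7.57% of all genes. The median log2 fold change of the list was 0.09 with its GIMAP genes and 0.09 without them.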
